A study of Mus musculus with 6 samples.

Results

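The genes described here encode the machinery that displays peptides on MHC class I and class II molecules in mouse brown fat. They are 10 genes chosen by symbol and found through their Ensembl identifiers among 37620 in the count files: H2-K1, H2-D1, B2m, Tap1 and Tap2 of the class I route, and H2-Aa, H2-Ab1, H2-Eb1, Cd74 and Ciita of the class II route. All 10 had a row, and 9 had enough counts to be tested. RNA was sequenced from mature brown adipocytes, the cells that float after collagenase digestion and a short spin. There were 3 libraries labelled wild type and 3 labelled Phospho1 knockout, all on a C57BL/6 background by their labels, which gene counts do not check, at 6 weeks of age, each library a pool of 3 mice. The question put to these genes is whether their transcript levels follow the genotype label. How the allele was made is not given in the sources used here, and nothing else distinguishes the groups in the labels.

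MHC class I molecules are heavy chains, such as those of H2-K1 and H2-D1, that fold around a peptide with the light chain beta-2-microglobulin. Peptides cut by the proteasome reach them through the TAP1-TAP2 transporter, and almost every nucleated cell carries them. Class II molecules pair an alpha with a beta chain, travel with the invariant chain CD74 and display peptides from endosomes, mostly on dendritic cells, B cells and macrophages. The coactivator CIITA switches on class II genes and NLRC5 class I genes, both through a promoter module bound by the RFX, CREB and NF-Y factors, and interferon gamma raises both routes. C57BL/6 mice lack a working H2-Ea gene, so that the H2-Eb1 chain has no partner and the I-E molecule is not displayed.

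Library totals ranged from 10576800 to 14239307 counts, of which genes of the mitochondrial genome took 39.1% to 56.5%. Levels below are in CPM, counts scaled to a common library size after TMM normalization, in which 1 count is worth 0.0564 to 0.102 CPM. Phospho1, the targeted gene, had 13, 5 and 5 counts in wild type 1, 2 and 3 and 18, 15 and 17 in libraries 1, 2 and 3 labelled knockout. Scaled for depth, these were 0.733, 0.341 and 0.449 CPM in wild type and 1.59, 1.23 and 1.74 CPM in the libraries labelled knockout. The Phospho1 transcript thus did not fall but was higher in the libraries labelled knockout, without overlap. Its log2 fold change was 1.53 (SE 0.46, edgeR adjusted p = 0.0563), which did not pass the threshold used below. The cause was not tested, and gene counts do not check the labels. Directions below are therefore those of the libraries labelled knockout. The brown fat marker Ucp1 stood at 2285 to 3288 CPM in wild type and 3817 to 4873 CPM in those labelled knockout, without overlap. Its log2 fold change was 0.66 (SE 0.26, edgeR adjusted p = 0.1135), and other brown fat markers are given below. The labels do not say whether the pools came from separate litters, so p-values measure the spread between these pools.

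The shared promoter module can be read in the sequences. RefSeq promoter windows on build GRCm38.p6 were matched for 6 of the 10 genes, H2-K1, H2-D1, B2m, Tap1, H2-Aa and H2-Eb1, and not for Tap2, H2-Ab1, Cd74 and Ciita. In 5 of the 6, the 250 bases before the start held the letters TGANG, the core of the CREB-bound X2 box, followed after 19 to 22 bases by ATTGG, the NF-Y-bound Y box, which reads CCAAT on the other strand. They are shown because these spaced letters are what these 5 class I and class II genes have in common. Both elements are in capitals, and each sequence is on the strand of its gene.
H2-K1: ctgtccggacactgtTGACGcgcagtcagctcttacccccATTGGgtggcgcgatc
H2-D1: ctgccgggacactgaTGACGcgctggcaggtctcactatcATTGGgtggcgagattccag
B2m: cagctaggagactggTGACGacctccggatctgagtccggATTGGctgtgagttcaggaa
H2-Aa: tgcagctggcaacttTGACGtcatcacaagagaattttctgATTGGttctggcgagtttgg
H2-Eb1: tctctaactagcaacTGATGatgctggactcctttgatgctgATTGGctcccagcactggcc
These stretches lie at chr17:34000348-34000403 (minus strand), chr17:35262978-35263037 (plus), chr2:122147594-122147653 (plus), chr17:34287852-34287912 (minus) and chr17:34305766-34305827 (plus), in that order. The spacer was 20 bases in the 3 class I promoters, 21 in H2-Aa and 22 in H2-Eb1. In H2-Eb1 the X2 letters occur again, overlapping the first set, and the later set lies 19 bases before the Y box. The capitals mark only the first set, and which of them is bound was not tested. The search letters and spacing were chosen after these promoters had been read. Of 27025 genes with a promoter window, 178 (0.659%) held them on the gene's strand and 320 (1.18%) on either strand. Among other genes of the pathway with a window, 3 of 16 class II genes (H2-DMb1, H2-DMb2 and H2-Eb2) held them as well. So did 3 of 22 class I genes (H2-M3, H2-Q6 and H2-Q7) and 0 of 14 interferon signalling genes. The window of Tap1 did not hold these letters.

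Class I transcripts were abundant in this adipocyte fraction and class II transcripts scarce, and the group difference passed the test for none of the 9 genes tested. Per kilobase of the longest protein-coding transcript, B2m led in wild type with 1163 ± 582 CPM per kilobase (SD, n = 3). H2-K1 followed with 265 ± 36 and H2-D1 with 82.4 ± 29.9. The class II genes came next, H2-Aa at 23.9 ± 2.9, H2-Ab1 at 13.5 ± 2.5, Cd74 at 12.8 ± 1.8 and H2-Eb1 at 9.31 ± 2.37, followed by the transporter genes Tap2 at 5.58 ± 0.87 and Tap1 at 4.08 ± 0.17 CPM per kilobase. The wild-type ranges of neighbours in this order overlapped for H2-Ab1 and Cd74 and for Cd74 and H2-Eb1, and for no other pair. B2m exceeded H2-K1, H2-K1 exceeded H2-D1 and H2-D1 exceeded H2-Aa in all 6 libraries. Ciita was barely counted, with 2, 1 and 0 counts in wild type and 0, 0 and 1 in the knockout-labelled libraries. A count of 0 allows up to 0.269 CPM in wild type 3 and up to 0.265 and 0.246 CPM in knockout-labelled 1 and 2.

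**Figure D1:**
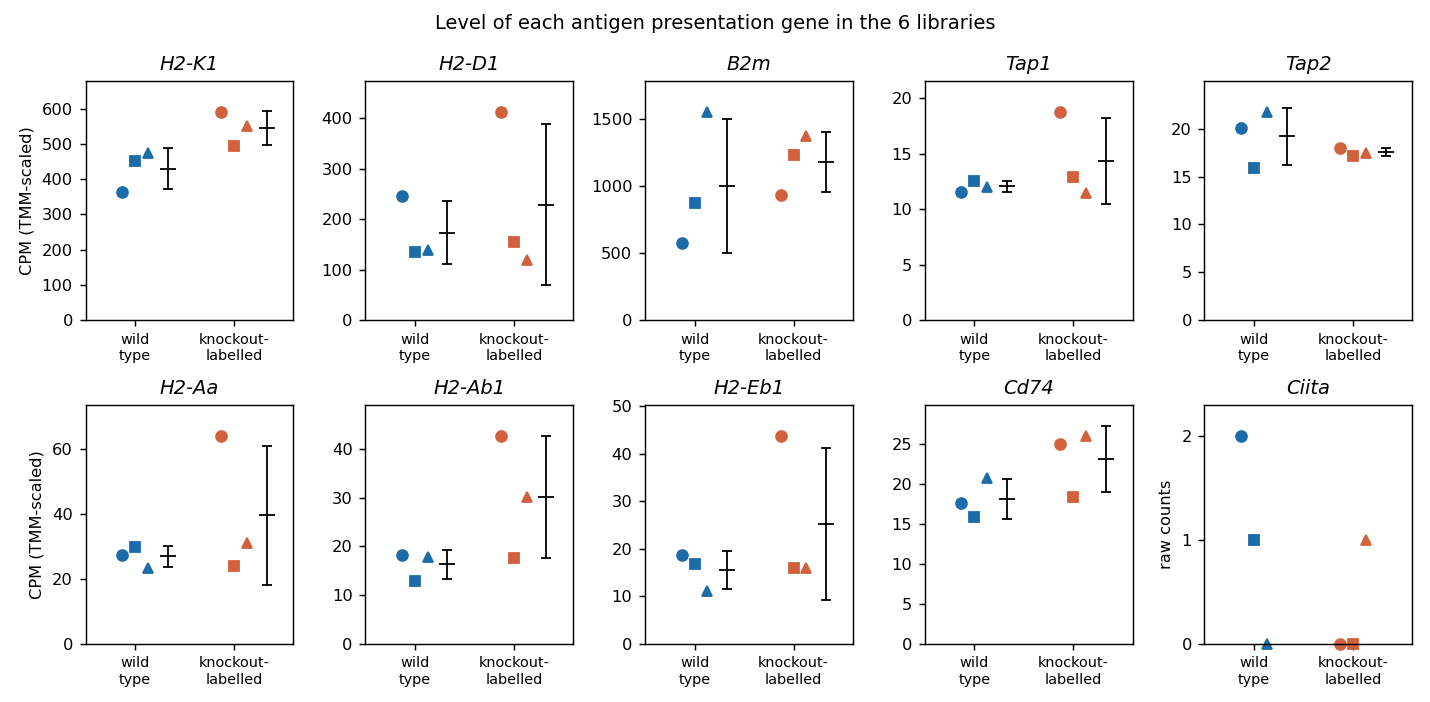
Level of the 10 antigen presentation genes in each library, in CPM on TMM-scaled library sizes (raw counts for Ciita). Circles, squares and triangles are libraries 1, 2 and 3, blue for wild type and orange for knockout-labelled; bars are mean ± SD of 3 libraries. Knockout-labelled library 1 is the highest of the 6 for 6 of the 9 tested genes, and H2-K1 is the only tested gene whose groups do not overlap.

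Of the 9 tested genes, 0 passed an adjusted p of 0.05 (edgeR quasi-likelihood test), where 9.16% of the 12068 genes tested did. DESeq2 and limma-voom also passed 0 of the 9, and in each of these 3 tests 1 of the 9 had an unadjusted p under 0.05. In edgeR that gene was H2-Ab1, and 30.8% of all tested genes met this mark. The log2 fold change was above 0 for 8 of the 9, against 51.4% of all tested genes, and its median was 0.35 against 0.03 over all tested genes. Every knockout-labelled library lay above every wild-type library for 1 of the 9 (H2-K1), against 15.8% of all tested genes, and below for 0 of the 9, against 19.6%, so that groups were apart for 1 of 9 members and for 35.4% of all tested genes. Without knockout-labelled library 1 the median of the 9 was 0.04. When each library's trend with transcript length and GC content was removed by offsets, 0 of the 9 passed, but the values depended on the transcript whose length was used. With the longest transcript of each gene the median of the 9 was 0.07, against 0.03 over all genes, 5 of the 9 were above 0, and 0.00843% of all genes in that fit passed. With the median transcript length the median of the 9 was 0.26, against 0.05 over all genes, and 7 of the 9 were above 0. Values with both offsets are given below as longest and median. In this bulk RNA, fewer cells of a type and less RNA per cell cannot be told apart.

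H2-K1, a classical class I heavy chain, had 364, 452 and 473 CPM in wild-type libraries 1, 2 and 3 and 590, 494 and 551 CPM in knockout-labelled libraries 1, 2 and 3. The groups did not overlap, although the highest wild-type library lay just under the lowest knockout-labelled one. Its log2 fold change was 0.34 (SE 0.22, 95% interval -0.15 to 0.83, edgeR adjusted p = 0.308), and with the length and GC offsets -0.10 (longest) and 0.04 (median). B2m, the light chain shared by all class I molecules, had 574, 877 and 1551 CPM in wild type and 934, 1231 and 1373 CPM in the knockout-labelled libraries. Wild-type libraries 1 and 3 were the lowest and highest of the 6, so the knockout-labelled values lay inside the wild-type range. The log2 fold change of B2m was 0.24 (SE 0.34, 95% interval -0.49 to 0.97, edgeR adjusted p = 0.643). It was -0.05 without wild type 1, 0.69 without wild type 3, and 0.07 (longest) and 0.61 (median) with the offsets. Wild type 3 also held skeletal muscle RNA, with the muscle myosin gene Myh4 at 76.5 CPM against 0.265 to 1.43 CPM in the other 5 libraries, a gene named after its values were seen.

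H2-D1, the other classical heavy chain of C57BL/6 mice, had 246, 135 and 139 CPM in wild type and 412, 154 and 120 CPM in the knockout-labelled libraries. The library numbered 1 was far above the others in each group, and the groups overlapped. The log2 fold change was 0.40 (SE 0.43, 95% interval -0.55 to 1.35, edgeR adjusted p = 0.536), -0.03 (longest) and -0.01 (median) with the offsets, -0.33 without knockout-labelled library 1 and 0.73 without wild type 1. The 2 heavy chains did not keep one ratio across the libraries. H2-D1 took 40.3% of the summed H2-K1 and H2-D1 counts in wild type 1 (exact 95% interval 39.4% to 41.2%) and 41.1% in knockout-labelled 1 (40.2% to 42.1%). The other 4 libraries gave 23% (22.1% to 23.9%) and 22.7% (21.7% to 23.7%) in wild type 2 and 3, and 23.8% (22.9% to 24.8%) and 17.9% (17% to 18.8%) in knockout-labelled 2 and 3. These intervals cover counting error only. By group the share was 28.7 ± 10.1% and 27.6 ± 12.1% (SD, n = 3 each), a difference of -1.06 percentage points (exact two-sided permutation p = 1, with 0.1 the smallest that 3 against 3 allow).

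Heavy chain genes resemble each other, which limits how reads were assigned between them. Of the 50-base stretches in H2-D1 protein-coding transcripts, 13.9% also occur in transcripts of other genes, most often H2-Q1 (6.68%), and for H2-K1 the share was 6.87%, most often H2-D1 (5.43%). The share was under 1% for Tap1 (0.834%) and Tap2 (0.708%) and 0% for B2m, H2-Aa, H2-Ab1, H2-Eb1, Cd74 and Ciita. The share was 7.73% for H2-Q10, 3.17% for H2-T24 and 1.19% for H2-T3. It ran from 16.1% (H2-Q2) to 43.9% (H2-T22) for the other listed H2-Q and H2-T genes. How the authors treated reads with several matches is not given in the sources used here. Single values of H2-D1 and H2-K1, and more so of the H2-Q and H2-T genes with the larger shares, are thus uncertain.

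The library pattern of H2-D1 was shared by few genes, and most of those with a chromosome lay on its own. Among 11633 genes with a mean of at least 1 CPM, 8 were at least 1.5-fold higher in both libraries numbered 1 than in each of the other 4, and 5 of the 8 were on chromosome 17, which holds 4.78% of the 11633. These 5, named after their values were seen, were H2-D1, H2-Q7, Rps18, Atp6v0c and Pot1b. H2-D1, whose own pattern set the rule, is counted in both the 8 and the 5 and adds nothing to the comparison with 4.78%. H2-Q7, a non-classical class I gene, had 4.45, 1.16 and 2.15 CPM in wild type and 11.1, 2.13 and 1.12 CPM in the knockout-labelled libraries. Rps18, a ribosomal protein gene of the MHC region, had 12.1, 0.614 and 3.95 CPM and 33.2, 7.87 and 1.33 CPM. These values rest on 214, 9 and 44 counts in wild type and 375, 96 and 13 in the knockout-labelled libraries. Stretches shared with other genes were not measured for Rps18, Atp6v0c and Pot1b. How reads were assigned to these genes is thus uncertain as well. For the opposite pattern, lower in both libraries numbered 1, 42 genes met the same rule and 0 of them were on chromosome 17. The cause of this pattern was not tested, and whether the pools differ in sequence on chromosome 17 was not tested either.

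**Figure D2:**
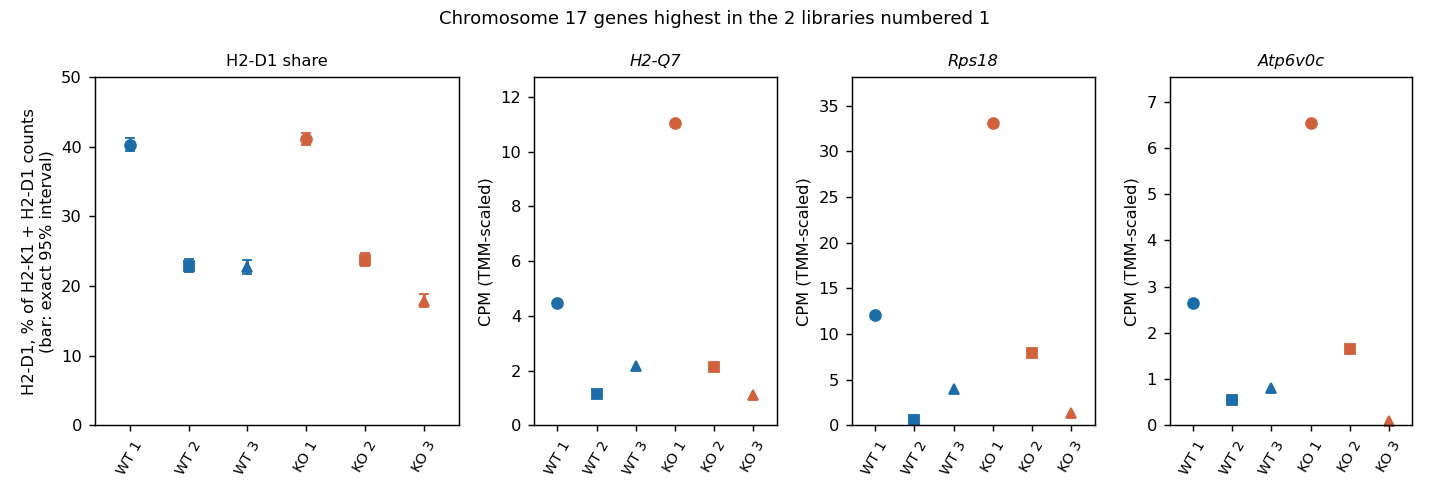
Left, H2-D1 as a percentage of summed H2-K1 and H2-D1 counts in each library, with exact 95% binomial intervals; right, CPM of H2-Q7, Rps18 and Atp6v0c. WT 1 to 3 are wild-type and KO 1 to 3 knockout-labelled libraries. The share is 40.3% and 41.1% in the libraries numbered 1 and at most 23.8% in the others, and the 3 chromosome 17 genes are highest in the same libraries.

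The transporter genes, whose products carry peptides into the endoplasmic reticulum, overlapped between the groups. Tap1 had 11.6, 12.6 and 12.0 CPM in wild type and 18.8, 12.9 and 11.4 CPM in the knockout-labelled libraries, of which only library 1 left the wild-type range upward. The log2 fold change of Tap1 was 0.25 (SE 0.26, 95% interval -0.32 to 0.83, edgeR adjusted p = 0.523), and -0.02 without both libraries numbered 1. Tap2 had 20.0, 15.9 and 21.7 CPM in wild type and 18.0, 17.1 and 17.5 CPM in the knockout-labelled libraries, all 3 inside the wild-type range. It was the only one of the 9 with a log2 fold change below 0, at -0.13 (SE 0.24, 95% interval -0.65 to 0.38, edgeR adjusted p = 0.718). With the offsets Tap2 stood at -0.24 (longest) and -0.73 (median, edgeR adjusted p = 0.101), the latter outside the interval of the fit without offsets.

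Among class II genes the spread lay in knockout-labelled library 1. H2-Aa, the I-A alpha chain, had 27.3, 30.0 and 23.5 CPM in wild type and 64.1, 24 and 30.9 CPM in the knockout-labelled libraries. H2-Ab1, its beta chain partner, had 18.3, 12.9 and 17.9 CPM in wild type and 42.7, 17.7 and 30.2 CPM in the knockout-labelled libraries. H2-Eb1, the I-E beta chain, had 18.8, 16.7 and 11.1 CPM in wild type and 43.8, 15.9 and 16.0 CPM in the knockout-labelled libraries. All 3 chains were highest in knockout-labelled 1, and knockout-labelled 2 lay within the wild-type range of each. Cd74 had 17.7, 15.8 and 20.8 CPM in wild type and 25.0, 18.4 and 26.0 CPM in the knockout-labelled libraries, the highest in library 3 and not in library 1.

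H2-Ab1 came nearest to the threshold of the 9 genes, with a log2 fold change of 0.89 (SE 0.32, 95% interval 0.19 to 1.58, edgeR adjusted p = 0.0917). That interval spans 1.14-fold to 2.99-fold and, unlike the adjusted p, is not corrected for the number of genes. H2-Eb1 and H2-Aa had log2 fold changes of 0.70 (SE 0.39, edgeR adjusted p = 0.241) and 0.56 (SE 0.34, adjusted p = 0.270), and Cd74 one of 0.35 (SE 0.25, adjusted p = 0.341). Without knockout-labelled library 1 the values were 0.56 for H2-Ab1, 0.04 for H2-Eb1, 0.03 for H2-Aa and 0.30 for Cd74. With the longest-transcript offsets they were 0.19 for H2-Ab1, 0.25 for H2-Eb1, 0.69 for H2-Aa and -0.27 for Cd74. With the median-transcript offsets they were 0.46, 0.51, 0.60 and 0.03 in the same order. The first offset for H2-Aa rests on a longest annotated transcript of 3223 bases, while its longest protein-coding transcript has 1128 bases. H2-Ea-ps, the row of the non-working I-E alpha gene, was added after the values were seen and had 12.8, 33.4 and 21.5 CPM in wild type and 22.3, 18.1 and 33.8 CPM in the knockout-labelled libraries. Its highest libraries, wild type 2 and knockout-labelled 3, were not those of H2-Eb1.

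**Figure D3:**
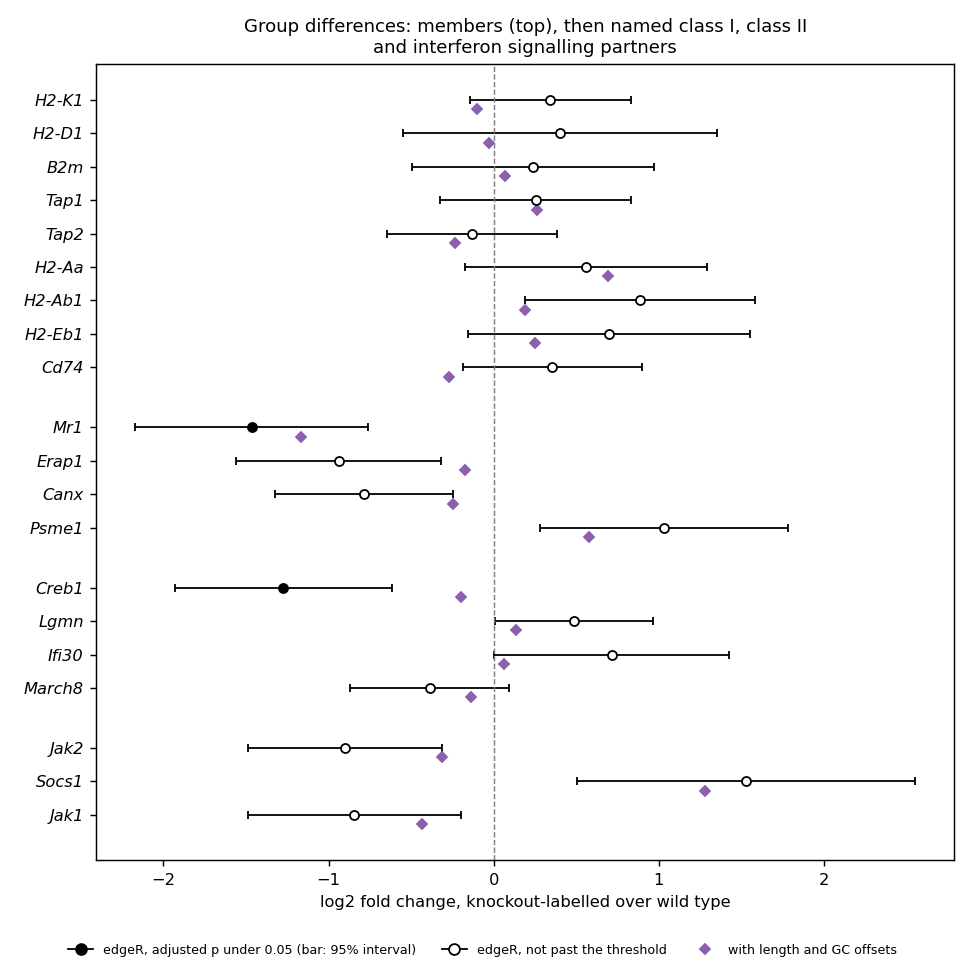
Log2 fold change, knockout-labelled over wild type, of the 9 tested members and, below them, genes with the smallest p in each list of class I partners (4), class II partners (4) and interferon signalling (3 shown). Circles with 95% intervals are the edgeR fit (filled where the adjusted p is under 0.05) and diamonds the fit with length and GC offsets for the longest transcript. Only Mr1 and Creb1 are filled, and both diamonds lie nearer to 0.

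Leukocyte markers other than the lysozyme gene Lyz2 were present at low levels, and the marker lists did not share one order of libraries. The 4 class II genes H2-Aa, H2-Ab1, H2-Eb1 and Cd74 summed to 82.0, 75.4 and 73.3 CPM in wild type and to 176, 76.0 and 103 CPM in the knockout-labelled libraries. The 5 pan-leukocyte genes, Ptprc, Coro1a, Laptm5, Cd52 and Cd53, summed to 56.0, 47.8 and 16.3 CPM in wild type and to 84.8, 41.4 and 89.1 CPM in the knockout-labelled libraries. Knockout-labelled 1 and 3 thus led in both sums, while wild type 3 was lowest in both, with a far larger drop in the pan-leukocyte sum than in the class II sum. Ptprc, which encodes the leukocyte antigen CD45, did not follow that sum, with 8.97, 4.57 and 2.87 CPM in wild type and 3.10, 2.54 and 5.21 CPM in the knockout-labelled libraries. None of the 5 passed the threshold in edgeR, and 0 of them had an unadjusted p under 0.05.

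The 14 macrophage markers summed to 136 to 235 CPM in wild type and to 252 to 526 CPM in the knockout-labelled libraries, without overlap. Of 13 tested, 1 was higher (Lyz2) and 1 lower (the scavenger receptor gene Cd163), against 1.63% and 7.52% of all tested genes. Lyz2 stood at 68.2 to 161 CPM in wild type and at 197 to 458 CPM in the knockout-labelled libraries. Without Lyz2, left out after its values were seen while Cd163 was kept, the other 13 summed to 67.4 to 74.3 CPM and to 54.7 to 89.1 CPM. These ranges overlapped, with knockout-labelled 1 and wild type 2 the highest. The 6 B cell markers were near the floor, with Pax5 at 0 in every library, and summed to 1.80, 2.59 and 2.51 CPM in wild type and to 4.69, 4.43 and 3.57 CPM in the knockout-labelled libraries. The groups did not overlap in that sum. The 10 dendritic cell markers summed to 14.0 to 21.8 CPM and 20.7 to 21.1 CPM, most of it from Zbtb46, and defining genes such as Flt3, Xcr1 and Clec9a had 0 to 3 counts in each library. The 8 T and NK cell markers summed to 1.80 to 3.38 and 2.63 to 5.66 CPM. For the 8 endothelial markers the sums were 548 to 674 and 653 to 834 CPM, and for the 8 adipocyte markers 17360 to 24460 CPM over all 6 libraries. The 5 brown adipocyte markers summed to 3851 to 5795 and 6308 to 7756 CPM, without overlap, but went opposite ways. Of these 5, 1 was higher (Cox7a1, log2 fold change 1.02, edgeR adjusted p = 0.0455) and 1 lower (Dio2, -2.08, adjusted p = 0.0175). The endothelial markers went opposite ways: the angiopoietin receptor gene Tek fell (log2 fold change -1.21, edgeR adjusted p = 0.0401), while Cldn5 stood at 1.07 and Kdr at -1.04 (adjusted p = 0.0759 and 0.0713). With the longest-transcript offsets Lyz2, Cd163, Cox7a1, Dio2 and Tek stood at 1.04, -2.10, 0.29, -1.32 and -0.81. None of them passed in that fit (edgeR adjusted p = 0.105, 0.108, 0.350, 0.0731 and 0.117). The part of any of these cell types in the class II values was not tested.

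**Figure D4:**
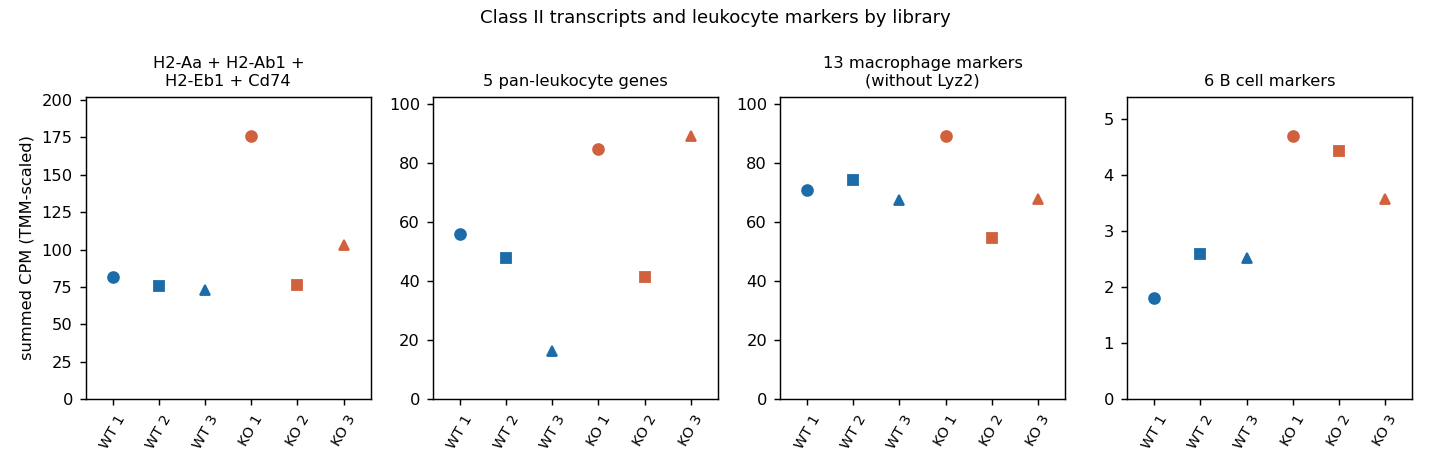
Summed CPM, by library, of 4 class II genes, 5 pan-leukocyte genes, 13 macrophage markers without Lyz2 and 6 B cell markers; WT is wild type and KO knockout-labelled. Lyz2 was left out after its values were seen, and with it the groups did not overlap in the macrophage sum. The class II sum is 176 CPM in KO 1 and 73.3 to 103 CPM elsewhere, the pan-leukocyte sum is lowest in WT 3, and the B cell sum lies between 1.80 and 4.69 CPM.

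Other genes of the class I route gave 0 higher and 1 lower among 25 tested in edgeR, against 1.63% and 7.52% of all tested genes. Of these 25, 8 had an unadjusted p under 0.05, a share near the 30.8% of all tested genes. Mr1, a class I-like molecule that presents vitamin B metabolites to MAIT cells, fell. It had 10.8, 9.28 and 16.0 CPM in wild type and 3.36, 5.74 and 3.88 CPM in the knockout-labelled libraries, with no overlap. Its log2 fold change was -1.46 (SE 0.32, edgeR adjusted p = 0.0232), and with the offsets -1.16 (longest, adjusted p = 0.0795) and -0.90 (median, adjusted p = 0.097). It passed neither without wild type 1 or 3 (adjusted p = 0.125 and 0.0747) nor without knockout-labelled 3 (0.0951).

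The next smallest p-values in that list belonged to genes of peptide trimming, folding and cutting. Erap1, the aminopeptidase that trims class I peptides, had 49.9 ± 10.8 and 26.0 ± 7.8 CPM (log2 fold change -0.94, SE 0.29, edgeR adjusted p = 0.0583). Canx, the chaperone calnexin that holds new heavy chains, had 264 ± 19 and 153 ± 39 CPM (-0.79, SE 0.25, adjusted p = 0.0653). Psme1, a subunit of the proteasome activator PA28, had 120 ± 36 and 246 ± 110 CPM (1.03, SE 0.34, adjusted p = 0.0751), and its groups overlapped. With the longest-transcript offsets these 3 stood at -0.17, -0.25 and 0.58, and with the median-transcript offsets at -0.74, -0.54 and 0.63. DESeq2, with its own filter, called all 3 (adjusted p = 0.0223, 0.0285 and 0.0270). The share of all genes that DESeq2 called is not given here, so these calls cannot be set against it. Psmb9, listed as a class I partner, was not analysed here.

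Among the other class II route genes, 0 were higher and 1 lower of 17 tested in edgeR, against 1.63% and 7.52% of all tested genes, and 3 had an unadjusted p under 0.05, against 30.8%. Creb1, a factor of the X2 box and of many other promoters, fell from 42.8, 25.3 and 28 CPM in wild type to 17.2, 13.2 and 9.29 CPM in the knockout-labelled libraries. Its log2 fold change was -1.28 (SE 0.30, edgeR adjusted p = 0.0290) and moved with the offsets to -0.20 (longest, adjusted p = 0.607) or -0.81 (median, adjusted p = 0.0801). It did not pass without wild type 1 (adjusted p = 0.176), knockout-labelled 2 (0.0723) or knockout-labelled 3 (0.108). The endosomal protease Lgmn, the thiol reductase Ifi30 and the ubiquitin ligase March8, which removes class II from the cell surface, had log2 fold changes of 0.49, 0.71 and -0.39 (adjusted p = 0.157, 0.161 and 0.248). H2-Ea, also on this list, matched no row by that symbol and is represented by H2-Ea-ps above, which is not counted among the 17.

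Of 14 tested genes of interferon signalling, 0 passed in edgeR in either direction, while 7 had an unadjusted p under 0.05, 2 higher and 5 lower. Of all tested genes, 30.8% met this mark in either direction and 12.3% higher, and 2239 of the 12068 met it lower. The kinases Jak2 and Jak1 had 33.1 ± 10.9 and 59.0 ± 18.6 CPM in wild type and 17.7 ± 1.1 and 32.8 ± 8.7 CPM in the knockout-labelled libraries (log2 fold changes -0.90 and -0.85, SE 0.27 and 0.30, adjusted p = 0.0553 and 0.0851). Socs1, an inhibitor of these kinases, had 0.968 ± 0.255 and 2.84 ± 1.6 CPM (1.53, SE 0.47, adjusted p = 0.0596), from 8 to 52 counts a library. Of these 3, DESeq2 called Jak2 and Socs1 (adjusted p = 0.0255 and 0.0470), and limma-voom called none of the 14. The share of all genes that either tool called is not given here. Jak2, Jak1 and Socs1 stood at -0.32, -0.43 and 1.28 with the longest-transcript offsets and at -0.09, -0.94 and 1.51 with the median-transcript offsets, and none passed.

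The genes whose levels over the 6 libraries were most like those of the members held none of the leukocyte markers counted above. With the mean log2 CPM of the 4 class II genes, the highest Pearson r among 10831 genes belonged to Pcolce (0.987), Ppp1r35 (0.980), Slc12a9 (0.979), Sigirr (0.978) and Amigo2 (0.976), and 12 genes exceeded 0.95. With the mean of H2-K1, H2-D1 and B2m it belonged to Suv39h1 (0.993), Serinc3 (0.985), Jchain (0.955), Rbm43 (0.949) and Rrad (0.944), and 3 genes exceeded 0.95. Jchain encodes the joining chain of antibodies and is a gene of plasma cells. All 10 were highest in knockout-labelled library 1. These are descriptions over 6 libraries, in each of which all genes share 1 depth and composition.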

How the data were processed

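The values the authors deposited are raw counts for each Ensembl identifier, 1 file a library. Per the submitters' processing notes, STAR 2.5.4b and mouse build mm9 were used. The counting program, its strand setting and its annotation were not given in the labels or headers. Symbols, transcript lengths and GC content came from GENCODE M21 (GRCm38) by identifier; 32897 of 37620 identifiers matched, and the rest held 0.178% of counts. Promoter sequences are RefSeq's on GRCm38.p6.

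The tests ran in edgeR 4.0.16 (R 4.3.3): filterByExpr (minimum count 10, minimum total 15; 12068 genes), TMM, and the quasi-likelihood F test (robust, two-sided) with Benjamini-Hochberg adjustment over all tested genes, threshold 0.05. Offsets for length and GC were smooth fits per library (mgcv 1.9.3, basis size 6). Alternatives used DESeq2 1.42.0, limma 3.58.1, other scalings and filters, a block and left-out libraries. Scripts were tested on simulated data. No pair of libraries held identical values.

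The genes and lists were chosen with earlier results of these data known. Genes named from the lists are the 4 with the smallest p in each (1 of them is not reported here), and the 5 most correlated with each class; others are said to be chosen after their values were seen.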

Additional observations from a re-analysis of the deposited data

How the results depend on the processing

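No member passed the threshold under any alternative run, so the count of members higher and the count lower were 0 throughout, from 0 to 3 of the 9 reaching an unadjusted p under 0.05. Leaving out any 1 library gave 0 to 0 members in each direction. Log2 fold changes changed sign in 10 cases: H2-K1 with offsets on the longest transcript (-0.101) and with the replicate block and those offsets (-0.0927); H2-D1 with offsets on the longest (-0.0262) and median transcript (-0.00908), with block and offsets (-0.169) and without knockout-labelled 1 (-0.331); Cd74 with offsets (-0.268) and with block and offsets (-0.24); B2m without wild type 1 (-0.0466); and Tap1 without both libraries numbered 1 (-0.0158), a setting chosen after seeing the data. H2-D1 moved to 0.734 without wild type 1 and B2m to 0.69 without wild type 3, both in the same direction. Total counts alone moved the median of all genes by -0.262 and that of the members to 0.108, which is 0.342 above all genes as against 0.326 with TMM.

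Pathway partners past the threshold numbered 0 higher and 2 lower (Mr1 and Creb1). DESeq2 gave 2 higher and 6 lower, total counts 7 lower, offsets on the longest or the median transcript 0 lower, the adjusted p of 0.01 0 lower, and the removal of both libraries numbered 1 0 lower. Leaving out 1 library in turn gave 0 to 1 higher and 0 to 7 lower. The share of all genes called is given here for the main fit and for the longest-transcript offsets only. The counts in the other runs cannot be set against such a share. Deviations from the group means correlated at 0.145, -0.534 and 0.0318 between libraries of the same number (1, 2 and 3). Between libraries of different numbers the correlations ran from -0.424 to 0.545. The deviations within a group sum to 0, so these correlations constrain each other and cannot decide whether the numbers pair the libraries. With the replicate block 1 partner was higher (Psme1, adjusted p = 0.0296) and 0 members passed; with block and offsets 0 partners were lower. The cause of these changes was not tested. Depth limits Ciita, with at most 2 counts a library, more than the other members.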

Other observations

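The genes below were chosen after their values were seen. H2-Q10, a secreted class I heavy chain best known from liver, stood at 109, 95.8 and 87.3 CPM in wild type and 77.2, 56.2 and 57.1 CPM in the knockout-labelled libraries. Its groups did not overlap, as in 35.4% of all tested genes, and its log2 fold change of -0.62 (SE 0.23) did not pass in edgeR (adjusted p = 0.101). Irf8, a transcription factor of myeloid and B cells, had 3.08 ± 1.6 and 7.44 ± 3.25 CPM (SD, n = 3 each; log2 fold change 1.25, SE 0.44, adjusted p = 0.0898). Nlrc5, the class I coactivator, had 46, 27 and 41 counts in wild type and 26, 12 and 9 in those labelled knockout. Its fold change was -0.93 on the log2 scale (SE 0.45, edgeR adjusted p = 0.183), with H2-K1 at 0.34. Atp6v0c, a proton pump subunit on chromosome 17, followed the libraries numbered 1 as H2-D1 did, with 47, 8 and 9 counts in wild type and 74, 20 and 1 in the knockout-labelled libraries. H2-Q5, a class I gene below the filter that shares many stretches with H2-Q7, had 14, 4 and 0 counts and 28, 5 and 0.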
